A study of Mus musculus with 4 samples.

Results

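The chymotrypsinogen genes Ctrb1 and Ctrl were examined for binding sites of the transcription factors Ptf1a and c-Myc in mouse pancreas. Sites were the peaks whose midpoint lay in 1 of 2 windows on chromosome 8 of the mouse build mm9. The Ctrb1 window ran from 114200000 to 114280000 and the Ctrl window from 108410000 to 108500000. The windows held 28 peaks of 23096 in all: 19 of 17632 Ptf1a peaks and 9 of 5464 Myc peaks. Of these, 15 Ptf1a and 6 Myc peaks lay in the Ctrb1 window, and 4 Ptf1a and 3 Myc peaks in the Ctrl window. The pancreas came from Ela1-myc mice at 8 weeks of age, and these mice carry c-Myc driven by the elastase 1 promoter, which is active in acinar cells. DNA of a single mouse (n = 1) went into the Ptf1a library, and DNA of 3 pooled mice into the c-Myc library. Both libraries therefore come from mice with the transgene, and no library from mice without it was analysed here. The tissue was whole pancreas, so a peak cannot be assigned to a cell type. Each factor has 1 library, so the values have no replicate error, no test was made, and every comparison is a description of these peak lists.

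Chymotrypsinogens are inactive precursors of chymotrypsin, a serine protease that cuts proteins after large hydrophobic residues. Acinar cells of the pancreas make them in large amounts, store them in zymogen granules and secrete them into the gut, where trypsin activates them. Ctrb1 encodes chymotrypsinogen B1, and Ctrl encodes a chymotrypsin-like protease of the same family. Ptf1a is a subunit of the PTF1 complex, which also holds an E protein and Rbpj or, in mature acinar cells, Rbpjl. The complex binds near many genes of digestive enzymes. Its known binding site joins an E-box, bound by Ptf1a and the E protein, to a TC-box, bound by the Rbpj or Rbpjl subunit. c-Myc binds DNA together with Max, preferably at the E-box CACGTG, and promotes growth and proliferation.

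The 250 bases before the start of each gene are shown because they can be searched for the letters of these motifs. They were taken from RefSeq on the build GRCm38.p6, where Ctrb1 (gene ID 66473) and Ctrl (gene ID 109660) each have 1 listed start, both on the minus strand of chromosome 8. The Ctrb1 stretch is chr8:111691011-111691260 and the Ctrl stretch chr8:105933863-105934112. Capitals mark each E-box CANNTG and each TC-box core TTTCCC on either strand, read 5′ to 3′ in the direction of the gene.
Ctrb1: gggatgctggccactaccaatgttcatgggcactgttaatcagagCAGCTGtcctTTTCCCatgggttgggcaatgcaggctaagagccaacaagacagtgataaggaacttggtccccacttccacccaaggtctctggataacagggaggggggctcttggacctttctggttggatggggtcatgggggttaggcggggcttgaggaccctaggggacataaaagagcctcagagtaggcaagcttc
Ctrl: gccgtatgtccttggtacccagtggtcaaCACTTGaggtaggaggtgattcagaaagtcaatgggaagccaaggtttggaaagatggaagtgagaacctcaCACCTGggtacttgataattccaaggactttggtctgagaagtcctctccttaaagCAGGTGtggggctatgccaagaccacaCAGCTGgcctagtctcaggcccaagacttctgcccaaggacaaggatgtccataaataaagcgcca

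The stretches differed in which letters they held. The Ctrb1 stretch had 1 E-box, CAGCTG, at 205 to 200 bases before the start, followed by TTTCCC at 195 to 190 bases before it. The Ctrl stretch had 4 E-boxes and no TTTCCC. Its E-boxes were CACTTG at 221 to 216, CACCTG at 149 to 144, CAGGTG at 93 to 88 and CAGCTG at 66 to 61 bases before the start. The second and the third of these are the same motif CACCTG read on opposite strands, and every CACCTG or CACGTG is also counted as CANNTG. Of 32851 RefSeq promoters of this length, 66.2% held CANNTG, 17.2% held CACCTG and 21.9% held TTTCCC on either strand. The Myc E-box CACGTG, present in 6.02% of promoters, was in neither stretch. The letters GATA, counted as a reference for a short motif, occurred in both (2 and 1 matches) and in 53.6% of promoters.

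Other genes of acinar secretory proteins were searched in the same way. Of a list of 28, which includes Ctrb1 and Ctrl, 21 were in the promoter table. CACCTG was present before a start of 12 of the 21, against 19.4% of all genes of the table; these included the elastase genes Cela1, Cela2a and Cela3b, the trypsinogen genes Prss1 and Prss2, the carboxypeptidase gene Cpb1 and Ctrl. TTTCCC was present in 7 of the 21, against 24.4% of all genes, among them Ctrb1, Cela1 and Cpa1. CACCTG and TTTCCC were both present in 5 of the 21 (Cel, Cela1, Cela2a, Prss1 and Prss2), against 4.2% of all genes. Neither chymotrypsinogen gene was among them. This count leaves out the CAGCTG and TTTCCC of the Ctrb1 stretch. Pairs of TTTCCC with E-boxes other than CACCTG, and the spacing within pairs, were not counted over the genes. CACGTG was present in 0 of the 21, against 6.86% of all genes. Genes of the same family, such as the elastase genes or the trypsinogen genes, were counted separately, so the 21 are not independent. A match of letters is a description of the reference sequence and does not show that a factor binds there. The promoter table and the peaks are on different builds, so these stretches were not placed among the peaks, and no peak below is assigned to a promoter, exon or intron.

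The Ctrb1 window was crowded with Ptf1a peaks, 1 of which was among the highest of the whole list. Its 15 Ptf1a peaks lay between 114209673 and 114269917, a span of 60.2 kb, with a median gap of 2.87 kb between neighbours. Over the whole Ptf1a list the median gap between neighbouring peaks was 26.4 kb. Scores, which are the authors' values from the peak caller and can be compared only within a list, ran from 50.73 to 3100 with a median of 129, against 116 for the whole list. In all, 11 of the 15 scored 100 or more, against 56.6% of the whole list, so the typical peak of the window was not far from the typical peak of the list. The peaks covered 11.3% of the window.

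The highest Ptf1a peak of the window, at 114228415 to 114229635, had a score of 3100. It shared this score with 12 other peaks of the list, and 2 peaks of the list scored higher, so its rank is 3 with ties. At 1221 bp it was also the widest peak of either window apart from 1 Myc peak at Ctrl. The next in the window was at 114214732 to 114215568, 13.9 kb to the low side (score 1513.05, rank 234, within the highest 1.33% of the list). The third, at 114219198 to 114219897, scored 761.56 (highest 6.83%). The fourth and the fifth stood on either side of the highest peak, at 114231991 to 114232677 with a score of 314.21 and at 114225064 to 114225864 with a score of 264.05. Thus 3 of the 15 peaks were in the highest 10% of the list by score.

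The other 10 Ptf1a peaks had modest scores, and most of the high coordinates of the window held only such peaks. A peak at 114215852 to 114216483 (score 155.59) began 283 bp after the end of the second highest peak, and a peak at 114233189 to 114233769 (score 126.62) began 511 bp after the fourth. The lowest-scoring peak, at 114212647 to 114212946, was also the narrowest at 300 bp, and its score of 50.73 was close to the lowest of the list, 50.01. The 6 peaks more than 10 kb above the highest one scored from 67.6 to 139.68, with a median of 98.5. The 9 remaining peaks had a median of 264 and included all those in the highest 10% of the list. The outermost peaks were those at 114209673 to 114210510 (score 117.72) and at 114269538 to 114269917 (score 67.6).

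**Figure D1:**
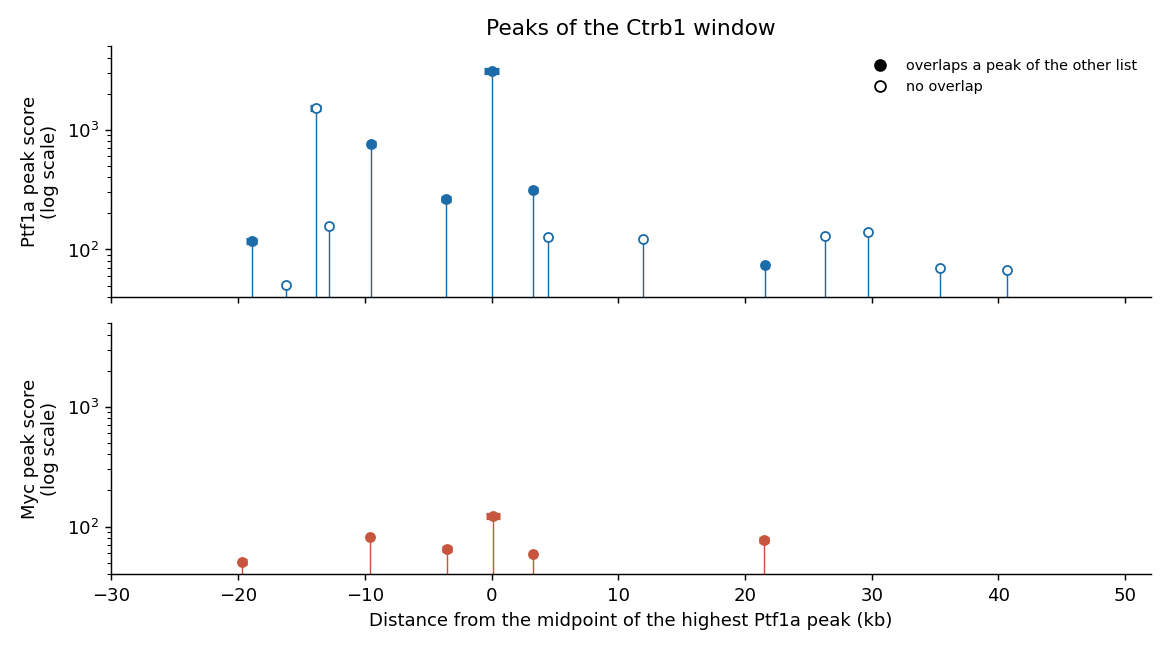
Peaks of the Ctrb1 window by distance in kb from the midpoint of the highest Ptf1a peak (horizontal axis) and by score on a log scale (vertical axis), with Ptf1a above and Myc below; horizontal bars give peak widths to scale, filled circles mark peaks that overlap a peak of the other list and open circles those that do not. All 6 Myc peaks are filled, and the Ptf1a peak of score 1513.05, 13.9 kb to the left, is open.

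All 6 Myc peaks of the Ctrb1 window overlapped a Ptf1a peak by at least 1 bp, against 41.4% of the whole Myc list. Conversely, 6 of the 15 Ptf1a peaks overlapped a Myc peak, against 13.4% of the whole Ptf1a list. Neighbouring peaks are not independent, and no test of these shares was made. High shares of the Myc peaks were also found in other dense groups of Ptf1a peaks, as given with the chains below. The Myc peaks scored from 50.77 to 121.47 with a median of 70.4, close to the median of the whole Myc list, 75.2. Only 1 of the 6 reached a score of 100, against 28.7% of the list, and none was in the highest 10% of the list.

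The pairs of overlapping peaks followed the Ptf1a scores at the top and not below. The highest Myc peak of the window, at 114228592 to 114229701 (score 121.47, within the highest 18.9% of the Myc list), lay on the highest Ptf1a peak, with 1044 bp in common and midpoints 121.5 bp apart. The second highest Myc peak, at 114219089 to 114219759 (score 81.29), lay on the Ptf1a peak of score 761.56, with 562 bp in common. The third, at 114250095 to 114250937 (score 76.5), covered the whole of a Ptf1a peak at 114250367 to 114250881 whose score was 73.71, the lowest among the 6 Ptf1a partners. The other Myc peaks close to the highest Ptf1a peak were at 114225100 to 114225908 (score 64.35) and at 114231980 to 114232618 (score 58.57). Their midpoints were 40 and 35 bp from those of their partners, which scored 264.05 and 314.21.

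The sixth pair touched only at the edges. The Myc peak at 114208990 to 114209719 (score 50.77) shared 47 bp, or 6.44% of its length, with the Ptf1a peak at 114209673 to 114210510. Over the whole series 6.12% of overlapping pairs had less than 50% of the narrower peak covered. When 50% was required, when midpoints had to be at most 500 bp apart, or when all peaks were set to 500 bp, 5 Myc and 5 Ptf1a peaks of the window were shared. The median distance between midpoints was 115 bp over the 6 pairs and 110 bp over all 2368 pairs of the series.

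A high-scoring Ptf1a peak was among the 9 without a Myc peak. The Ptf1a peak of score 1513.05 had its nearest Myc peak 3.52 kb away. Of the 234 Ptf1a peaks of the list that scored as high or higher, 46.2% overlapped a Myc peak. The other 8 unshared Ptf1a peaks scored from 50.73 to 155.59, and the 6 shared ones from 73.71 to 3100 with a median of 289. Shared Ptf1a peaks of the window were also wider, with a median of 750.5 bp against 398 bp for the unshared. In the whole list these medians were 596 and 504 bp. Of the unshared peaks, that at 114233189 to 114233769 came closest to a Myc peak, with a gap of 570 bp.

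The Ctrl window showed a different arrangement, with 1 very high Ptf1a peak, a run of 3 Myc peaks beside it and no overlap between the lists. Over the whole lists 13.4% of Ptf1a and 41.4% of Myc peaks were shared, so most peaks of either list had no overlap. Neighbouring peaks are not independent, and no conclusion is drawn from an absence of overlap among 4 and 3 peaks. The Ptf1a peak at 108457389 to 108458176 had a score of 2611.56 and rank 25 of 17632, within the highest 0.142% of the list. It was 788 bp wide. The other 3 Ptf1a peaks scored 75.45, 64.9 and 51.45, so 1 of the 4 reached a score of 100. They lay at 108454385 to 108455042, at 108410024 to 108410479 and at 108455044 to 108455462. The peaks of scores 75.45 and 51.45 were separated by 1 bp, as were 0.0227% of neighbouring Ptf1a peaks (4 of 17607 pairs), and could be counted as 1 stretch, which leaves 3 Ptf1a peaks in the window. The peak at 108410024 was 43.9 kb from the next and stood 0.251 kb inside the edge of the window.

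The Myc peaks at Ctrl followed the highest Ptf1a peak on the side of higher coordinates. They were at 108458790 to 108459705 (score 68.74), at 108459931 to 108461370 (score 163.48) and at 108462009 to 108463087 (score 112.97). The middle peak was in the highest 9.21% of the Myc list and, at 1440 bp, the widest peak of both windows. The gaps between the 3 were 225 and 638 bp. How common such runs were in the list depended on the limit set for the gaps. With gaps of at most 1 kb, 0.878% of Myc peaks stood in runs of 3 or more. With limits of 5000, 12500 and 25000 bp these shares were 4.63%, 10.9% and 18.6%, and the run at Ctrl still held 3 Myc peaks. Of the 16 runs under the limit of 1 kb, 5, that at Ctrl included, held no Myc peak that overlapped a Ptf1a peak. The first Myc peak began 613 bp after the end of the highest Ptf1a peak, and the others 1.75 and 3.83 kb after it. All 3 thus lay within 5 kb of a Ptf1a peak without overlapping one, as did 14.9% of the whole Myc list. That Ptf1a peak was the same for all 3, so they are not 3 separate cases. Only the first lay within 1 kb of it.

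**Figure D2:**
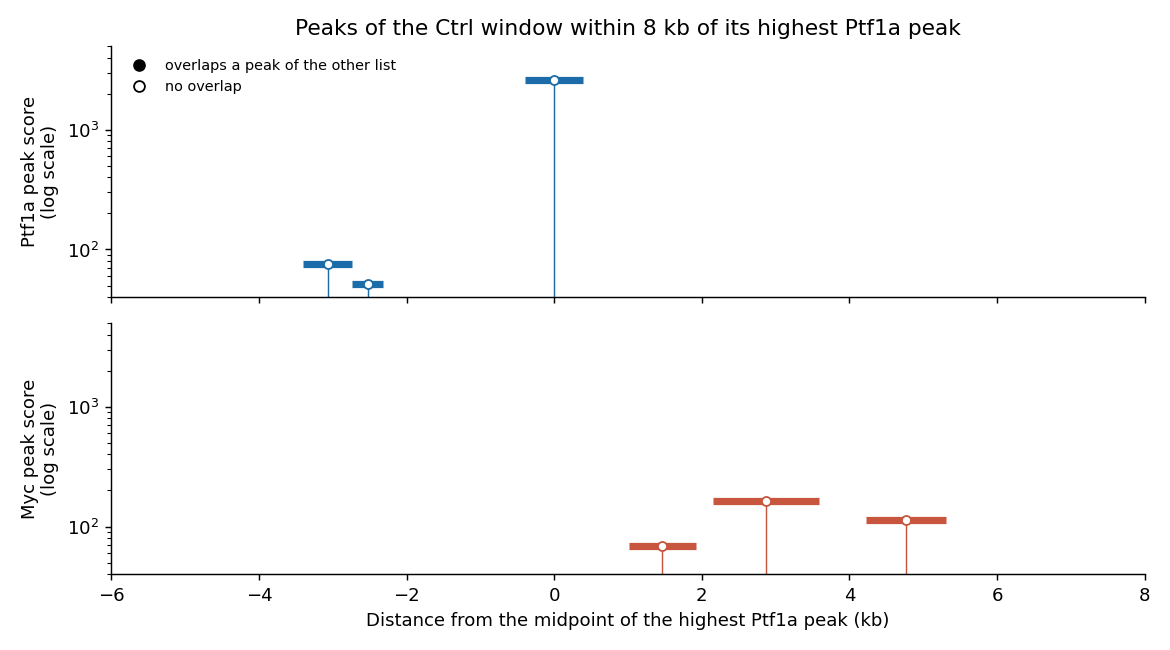
Peaks of the Ctrl window by distance in kb from the midpoint of the highest Ptf1a peak (horizontal axis) and by score on a log scale (vertical axis), with Ptf1a above and Myc below; horizontal bars give peak widths to scale and open circles mark peaks without overlap. The 3 Myc peaks all lie to the right of the Ptf1a peak of score 2611.56, and the Ptf1a peak of score 64.9, 47.5 kb to the left, is outside the plotted range.

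At Ctrl the nearest midpoints of the lists were 1465 bp apart and the smallest gap was 613 bp, so no peak was shared under the other rules of overlap either, all of which ask for closer peaks. A rule that admits gaps of up to 1 kb would pair the highest Ptf1a peak with the first Myc peak. A Myc peak at most 1 kb away without overlap was recorded for 3.32% of all Ptf1a peaks. It was recorded for the highest Ptf1a peak at Ctrl and for the peak at 114233189 to 114233769 in the Ctrb1 window. Of the 25 Ptf1a peaks with scores of 2611.56 or more, 52% overlapped a Myc peak, and 4%, which is the Ctrl peak alone, had a Myc peak at most 1 kb away without overlap. The Ctrl peak was in this group by construction, because its own score set the limit. The share of 4% was close to the 3.32% of all Ptf1a peaks. The depth of both libraries is unknown, so a site found in 1 list only is not shown to be free of the other factor.

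**Figure D3:**
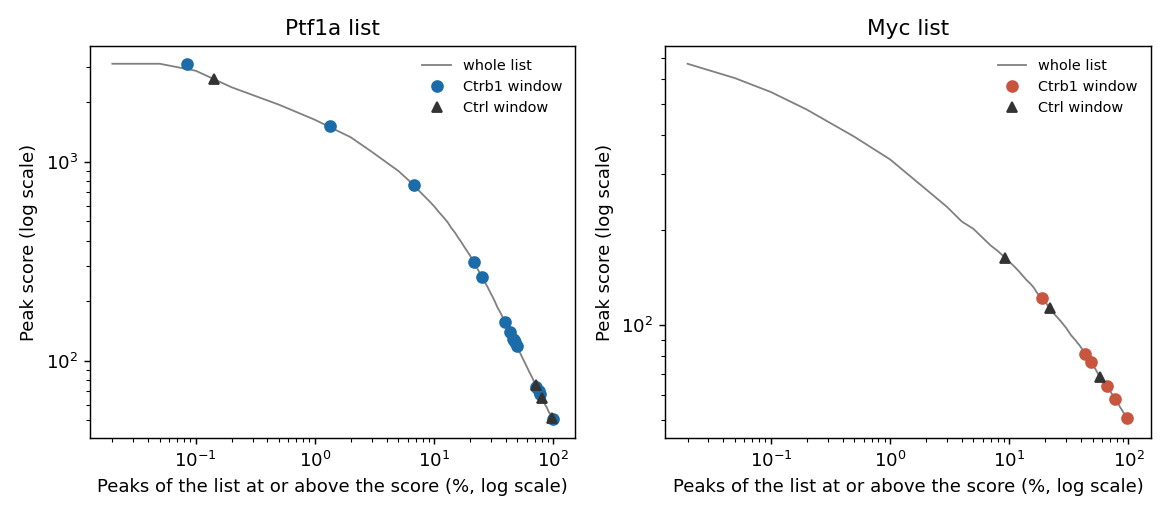
Place of the window peaks in the Ptf1a list (left) and the Myc list (right): the horizontal axis is the percentage of the list at or above a score and the vertical axis the score, both on log scales; the grey line is the whole list, coloured circles are peaks of the Ctrb1 window and black triangles those of the Ctrl window. Each window has 1 Ptf1a peak near the top of the list (3100 and 2611.56), while the highest Myc peaks score 121.47 at Ctrb1 and 163.48 at Ctrl.

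Each window thus had a Ptf1a peak among the 25 highest ranks of the list, and the windows differed in how many others stood around it and in where Myc was found. Ptf1a peaks numbered 18.75 per 100 kb at Ctrb1 and 4.44 at Ctrl. Myc peaks numbered 7.5 and 3.33 per 100 kb. The Myc peaks at Ctrl were wider and scored higher, with a median width of 1079 bp and a median score of 113, against 769.5 bp and 70.4 at Ctrb1, although their number is small.

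To set these numbers beside the rest of the genome, the chromosomes were divided into adjoining stretches of the length of each window. The windows were placed on genes already known to hold peaks, while the stretches were not placed on anything, so the shares describe how common such numbers are. Of the 31966 stretches of 80 kb, 0.00313% (1 stretch) held 15 or more Ptf1a peaks, and the median stretch held 0. When the stretches were moved by 0.5 of their length there were 5. At least 6 Myc peaks were held by 0.0438% of stretches of 80 kb. For Ctrl, 4.69% of the 28415 stretches of 90 kb held 4 or more Ptf1a peaks and 1.27% held 3 or more Myc peaks. Most stretches held no peak: among those with a peak of either list these shares were 15.4% and 4.16%, and for the Ctrb1 numbers 0.0108% and 0.151%. Fixed stretches can divide a group of peaks: the 1 stretch with 15 or more Ptf1a peaks lay outside the Ctrb1 window, whose own peaks were split between neighbouring stretches, while 1 of the 5 after the move lay over it.

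**Figure D4:**
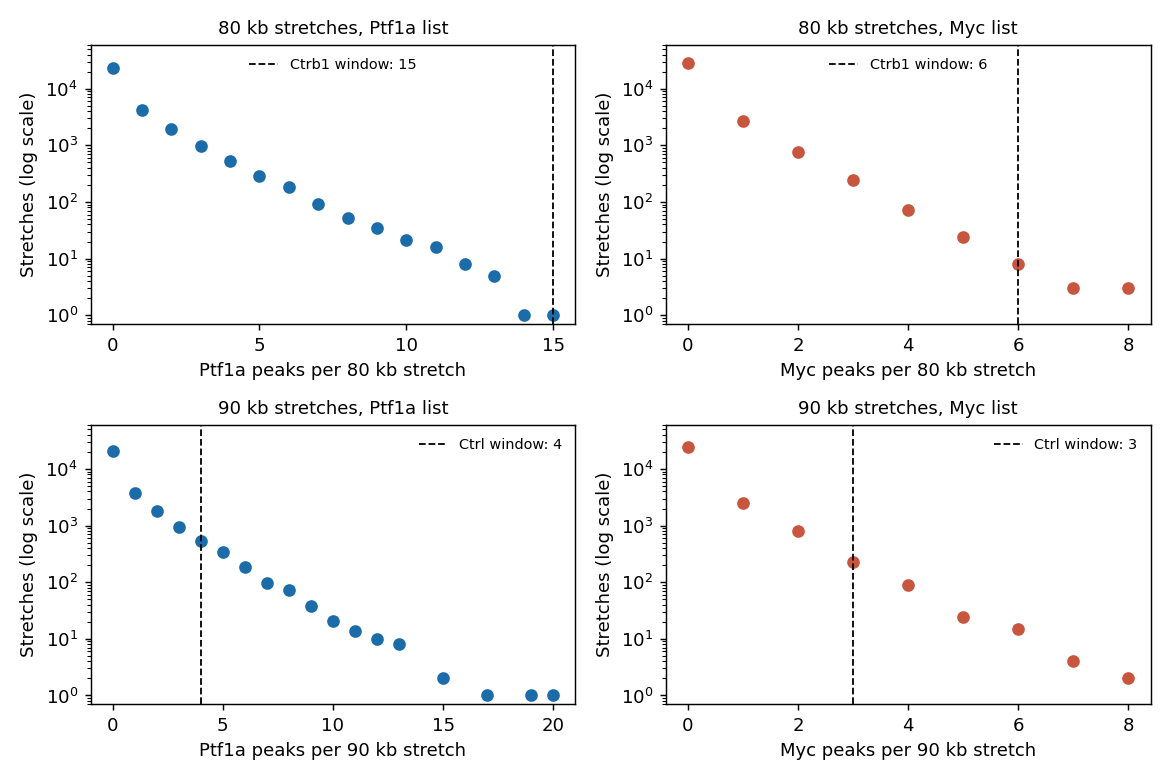
Number of peaks per stretch of 80 kb (upper row) and 90 kb (lower row) over the genome, Ptf1a on the left and Myc on the right; the horizontal axis is peaks per stretch, the vertical axis the number of stretches on a log scale, and the dashed line the number in the Ctrb1 window (15 and 6) or the Ctrl window (4 and 3). The Ctrb1 numbers lie in the thin tail of both lists and the Ctrl numbers among more common values.

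The Ctrb1 peaks were also considered as a chain, that is, Ptf1a peaks joined wherever the gap was at most 12500 bp. All 15 belonged to 1 chain, and 3 chains of the list were larger. With gaps of up to 25000 bp the chain still held 15 peaks, and 13 chains were larger. Among the 29 chains of 10 or more Ptf1a peaks, no other chain had a peak that scored as high as 3100. The share of its Ptf1a peaks with a Myc peak, 40%, was reached by 5 of the 28 other chains, whose median was 16.03% and whose range was 0 to 61.1%. Of 6 such chains with at least 5 Myc peaks, 3 had every Myc peak on a Ptf1a peak, Ctrb1 among them. Full sharing was therefore not particular to Ctrb1: chains of 12 and 11 Ptf1a peaks had 6 of 6 and 5 of 5 Myc peaks shared. The rest of the 6 had 10 of 11, 4 of 5 and 4 of 5 shared. Chains with fewer Myc peaks ranged from none shared to all shared. With a limit of 5 kb the chain broke up, and the part that held the highest peak had 4 peaks over 8.71 kb, of which 3 were shared, and 107 chains were larger. At Ctrl the chain held the 3 Ptf1a peaks from 108454385 to 108458176 under limits of 5000, 12500 and 25000 bp alike.

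The edges of the windows did not divide groups of peaks. Just outside the Ctrb1 window, the nearest Ptf1a peaks had scores of 473.28 (31.7 kb beyond the low edge) and 93.65 (26.3 kb beyond the high edge), and the nearest Myc peaks were 829.5 and 98.2 kb beyond the edges. Just inside it were the outermost Ptf1a peaks, 10.1 and 10.3 kb from the edges. Outside the Ctrl window the nearest Ptf1a peaks scored 57.34 and 66.82, at 34.0 and 46.5 kb from the edges, and the nearest Myc peaks 133.55 and 82.17, at 25.1 and 159 kb. In the order of protein-coding genes on GRCm38.p6, Ctrb1 stands between Zfp1 and Bcar1, with Ldhd and Znrf1 beyond the former and Cfdp1 and Tmem170 beyond the latter. Ctrl stands between Pskh1 and Psmb10, with Nrn1l and Edc4 on one side and Lcat and Slc12a4 on the other. Bcar1 encodes an adaptor protein of cell adhesion signalling, Psmb10 a subunit of the immunoproteasome and Lcat an enzyme of cholesterol esterification in plasma. The windows are wide enough to hold neighbouring genes, and which gene a peak acts on was not tested.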

How the data were processed

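Chromatin immunoprecipitation with sequencing was done on pancreas of Ela1-myc mice, with 1 library per factor. The submitters' processing notes name BWA (0.5.9-r16), MACS (1.4.1), CASAVA (1.8) and FastQC (0.9.4), and the build mm9. Settings, the limit for calling a peak and how inputs entered are not given in the sources. The deposited lists give the position and score of each peak. The score is the authors' value from the peak caller, on a scale no header states, with a minimum of 50.01 (Ptf1a) and 50 (Myc). No list gives read counts, so depth is unknown and no interval was computed. The input libraries were not analysed here.

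Coordinates are counted from 1. Peaks were assigned to a window by midpoint and called shared at 1 bp of overlap. Every peak was accounted for; those given in full were all Myc peaks with their partners, the 5 highest Ptf1a peaks per window, unshared Ptf1a peaks in the highest 10% of the list, and the outermost peaks. Alternatives were other overlap rules, a score limit of 100, windows widened by 20 kb, other chain gaps and shifted stretches. The members, lists and windows were chosen with earlier results of these data known. Python 3.11.15, numpy 2.4.6, pandas 2.3.3 and matplotlib 3.10.9 were used, and the counting was tested on simulated data.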

Additional observations from a re-analysis of the deposited data

How the results depend on the processing

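Of 44 alternative values for the numbers of peaks, overlaps, chains and stretches, 34 stayed within 1.5 times the reported value. Not all of these could have moved, so the tally is no measure of robustness. The overlaps at Ctrl stay at 0 because each alternative asks for closer peaks or leaves fewer of them. Gaps between Ptf1a peaks at Ctrb1 were at least 283 bp, beyond the 10 bp limit, and no outside peak lay within 20 kb of a window. With only peaks of score 100 or more, 1 Myc peak was left in the Ctrb1 window, 1 Ptf1a peak in the Ctrl window, and 1 shared peak of each list at Ctrb1, by construction because fewer peaks enter. With a gap of at most 5 kb the Ctrb1 chain held 4 Ptf1a peaks. The share of 80 kb stretches with as many Ptf1a peaks as the Ctrb1 window was 0.0156% with stretches moved by 0.5 of their length and 0.0108% among stretches with a peak of either list; counting only such stretches gave 0.151% for Myc at Ctrb1, and 15.4% and 4.16% for Ptf1a and Myc at Ctrl. Windows widened by 20 kb on each side held the same numbers of peaks. Counting Ptf1a peaks at most 10 bp apart once, an alternative chosen after seeing the data, left 3 at Ctrl. Within 150 bases of the start the Ctrb1 stretch held neither CANNTG nor TTTCCC, and Ctrl held 3 CANNTG. Of the 21 listed genes, 9 then held CACCTG, against 12.2% of all genes, and 6 held TTTCCC, against 15.1%. Both were held by 3 of the 21, against 1.48% of all genes. The planned comparison of the proteins was not run. Leaving out a replicate could not be tried. No paired analysis was possible because there is a single library for either factor.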

Other observations

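The arrangements at the Ctrb1 and Ctrl genes were looked for over all stretches, a comparison chosen after the peaks were seen. Stretches over the windows were not left out. Of the 90 kb stretches with 3 or more Myc peaks, 1 lay over the Ctrl window. Of the 14 stretches of 80 kb with 6 or more Myc peaks, 2 had every Myc peak on a Ptf1a peak, as in the Ctrb1 window. Of the 343 stretches of 90 kb with 3 or more Myc peaks and at least 1 Ptf1a peak, 59 (17.2%) had no Myc peak on a Ptf1a peak, as in the Ctrl window.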
